A study of Mus musculus with 4 samples.

Results

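The 10 genes of the endoplasmic reticulum (ER) described here were followed in messenger RNA of mouse oocytes, after reduction of Parp12 and in controls. They were chosen by symbol from the table of raw counts per gene, and all 10 were found among its 55453 genes. They are the chaperones Hspa5 and Hsp90b1, the lectin chaperones Calr and Canx, the disulfide isomerases Pdia3, Pdia4 and Pdia6, the stress sensors Ern1 and Atf6, and the transcription factor gene Xbp1. In mm10, Hspa5 and Pdia3 lie on chromosome 2, and Ern1, Canx and Xbp1 on chromosome 11. Atf6 is on chromosome 1, Pdia4 on 6, Calr on 8, Hsp90b1 on 10 and Pdia6 on 12. All 10 passed the filter on low counts, which left 15868 genes for testing. The study held 4 RNA-seq libraries, 2 from oocytes labelled Parp12 knockdown and 2 from controls labelled WT. In both groups the oocytes were taken from the ovary and were at the germinal vesicle stage, the arrest in meiotic prophase before maturation. The sources used here give neither strain, age and number of oocytes in a library nor the way in which Parp12 was reduced. PARP12 is an enzyme of the PARP family and attaches ADP-ribose to other molecules.

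Proteins that enter the secretory pathway fold in the ER, where chaperones hold unfolded chains, lectins retain glycoproteins that are not yet folded, and isomerases make and rearrange disulfide bonds. When unfolded protein builds up, membrane sensors start the unfolded protein response: IRE1, the product of Ern1, splices Xbp1 messenger RNA, and ATF6 is cut in the Golgi to free a transcription factor. Both branches raise transcription of ER chaperone genes. A growing oocyte makes and secretes the glycoproteins of the egg coat, and its ER also stores the calcium released at fertilisation.

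Many ER chaperone promoters are known to carry the ER stress response element (ERSE), bound by NF-Y at a CCAAT box and by ATF6 at a CCACG core. It was taken as CCAAT, 9 bases of any kind and CCACG, and was searched on both strands of the RefSeq promoter windows of GRCm38.p6, which run from 250 bases before to 50 bases after an annotated start. Windows were found for 9 of the 10 genes, the exception being Atf6. The element occurred in 5 of these 9 windows, against 39 of all 32851 windows of the same length (0.119%). Since the element is known from ER chaperone promoters, this contrast describes the windows and was no test. The matches are shown because they are the sequence that these chaperone genes share. Capitals mark the fixed letters, each match is written in the orientation of the element, and coordinates are those of GRCm38.p6.
Calr, chr8:84847075-84847093, plus strand: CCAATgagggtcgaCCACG
Canx, chr11:50325800-50325818, minus strand: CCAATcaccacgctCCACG
Hsp90b1, chr10:86705638-86705656, minus strand: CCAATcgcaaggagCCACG
Hsp90b1, chr10:86705533-86705551, plus strand: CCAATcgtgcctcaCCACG
Hspa5, chr2:34772025-34772043, plus strand: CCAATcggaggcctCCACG
Pdia6, chr12:17266491-17266509, plus strand: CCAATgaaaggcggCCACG

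Hsp90b1 carried the element 2 times, at -212 to -194 and at -107 to -89 from its annotated start, counted as 0, and the other 4 windows carried it once. The element nearest to a start was that of Hspa5, at -65 to -47. The windows of Hsp90b1 and Hspa5 are printed whole, on the strand of the gene. These genes had the smallest unadjusted p by edgeR in the comparison of the libraries given below. Pdia3, whose window lacks the element, was close to Hspa5 by edgeR (p 0.0433 against 0.0428). It had the smaller p of these 2 by DESeq2 (0.0030 against 0.0258) and by limma-voom (0.0207 against 0.0243). Capitals again mark the fixed letters of the element on either strand.
Hsp90b1, chr10:86705395-86705694, minus strand: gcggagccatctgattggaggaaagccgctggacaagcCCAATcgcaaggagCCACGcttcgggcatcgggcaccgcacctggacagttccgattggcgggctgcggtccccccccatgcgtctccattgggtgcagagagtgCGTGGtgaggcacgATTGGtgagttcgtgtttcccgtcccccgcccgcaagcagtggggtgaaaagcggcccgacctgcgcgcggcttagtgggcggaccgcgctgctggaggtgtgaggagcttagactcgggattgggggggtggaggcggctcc
Hspa5, chr2:34771840-34772139, plus strand: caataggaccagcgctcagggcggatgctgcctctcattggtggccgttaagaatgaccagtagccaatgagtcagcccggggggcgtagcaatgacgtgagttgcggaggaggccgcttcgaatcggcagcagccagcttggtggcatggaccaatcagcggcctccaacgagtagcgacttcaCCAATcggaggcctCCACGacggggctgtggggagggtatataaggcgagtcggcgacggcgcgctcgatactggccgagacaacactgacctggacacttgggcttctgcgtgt

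**Figure D1:**
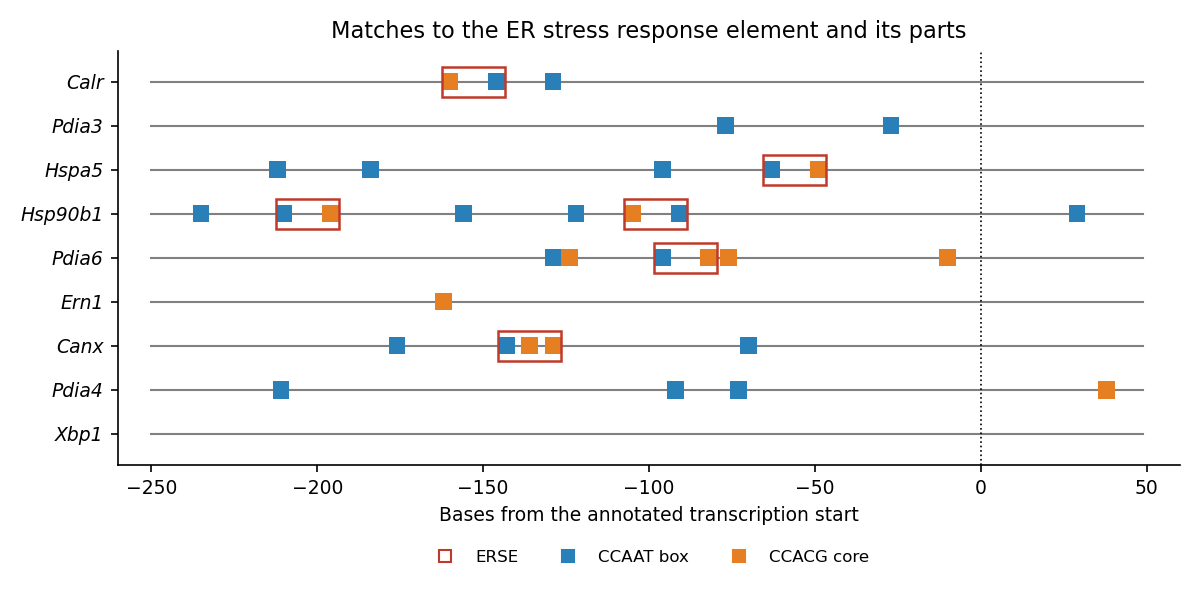
Matches to the ER stress response element (open boxes) and to its parts, the CCAAT box and the CCACG core (filled boxes), on either strand of 9 promoter windows, by distance in bases from the annotated transcription start (dotted line). The element is present in the windows of Calr, Hspa5, Hsp90b1 (2 times), Pdia6 and Canx.

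The parts of the element are common and overlap it by construction. CCAAT was present in 7 of the 9 windows and in 37.4% of all windows, and CCACG in 7 of the 9 and in 32.8% of all. Pdia3 and Pdia4, isomerases without the whole element, had CCAAT boxes, and Ern1 had a CCACG core at -164 to -160. Other motifs of stress-responsive promoters that were searched had no match in the 9 windows. These were ERSE-II (ATTGG, 1 base of any kind and CCACG, in 0.0365% of all windows), TGACGTGG (an XBP1-type element whose reverse strand holds CCACG, 0.676%) and TGACGTCA (the cAMP response element, 1.79%). The 9 windows had between 51.0% (Xbp1) and 75.7% (Pdia3) G and C, against a median of 52.7% over all windows.

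The libraries were deep, and the labels fitted the targeted gene. Library totals were 42576499 and 35805122 counts in the knockdowns, and 45230773 and 40938363 in the controls. Parp12 had 32 and 86 counts in the knockdowns, against 14279 and 9419 in the controls. The 12 oocyte markers, led by Gdf9 and Bmp15, summed to 25981 and 26620 CPM (counts per 1000000 counts of the library) in the knockdowns, and to 24606 and 25254 CPM in the controls, so these sums did not overlap. The 15 granulosa and cumulus markers summed to between 44.9 and 46.3 CPM in the knockdowns and between 49.8 and 53.2 CPM in the controls. Of these 15, 7 were at 0 in all libraries (Amh, Amhr2, Foxl2, Inhba, Inhbb, Fst and Krt18), and Cyp19a1 and Kitl were the highest in CPM. The 11 theca and stroma markers summed to between 2.40 and 5.06 CPM in the knockdowns and between 5.06 and 9.40 CPM in the controls, with Col1a2 and Col3a1 at 0 and Hsd3b1 and Star the highest in CPM. The 9 markers of blood, immune and endothelial cells summed to between 95.3 and 102 CPM in the knockdowns and between 104 and 107 CPM in the controls, nearly all of it Pecam1, followed by Vwf, with Lyz2, Adgre1 and Cdh5 at 0. The part of these differences in the results below was not tested, and in such bulk libraries fewer cells of a type and less RNA per cell cannot be told apart.

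Per length, the most abundant of the 10 was Calr, the calcium-binding lectin of the ER lumen. On the scale of RPKM (counts per 1000 bases of summed exon length and 1000000 counts of the library), Calr was at 261 and 267 in the knockdowns and at 233 and 259 in the controls, and it ranked 137 among all genes by its mean over the libraries. Pdia3 (ERp57), the isomerase that works with Calr and Canx on glycoproteins, followed at 145 and 147 RPKM in the knockdowns and 126 and 135 RPKM in the controls. Hspa5 (BiP), the ER chaperone of the HSP70 family, came next, before Hsp90b1 (GRP94), that of the HSP90 family. Their means over the 4 libraries were 116 and 98.3 RPKM. The calnexin gene Canx, whose product is the membrane-bound relative of calreticulin, stood much lower than Calr. It had 40.3 and 47.1 RPKM in the knockdowns and 44.2 and 41.9 RPKM in the controls. The Calr level was between 5.28 and 6.49 times that of Canx in every library.

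The other isomerases were uneven in level, and the sensor gene Ern1 was as abundant as Pdia6. Pdia6, an isomerase that also acts on IRE1, averaged 57.9 RPKM over the 4 libraries, and Pdia4 (ERp72) averaged 16.4. Ern1, with 56.7 and 47.2 RPKM in the knockdowns and 58.2 and 57.9 RPKM in the controls, overlapped Pdia6, each being the higher in 2 libraries. Atf6 averaged 14.6 RPKM. Pdia4 and Atf6 likewise changed places between libraries, each being the higher in 2 of 4. Hspa5 lay above Hsp90b1 in all 4 libraries, by 1.09 to 1.35 times, though their ranges over the libraries overlapped. This order rests on the full summed exon length of Hsp90b1, 4032 bases, of which 632 overlap exons of other listed genes. Whether reads there were counted for Hsp90b1 was not tested. All other neighbours in the order kept the same place in every library and had ranges that did not overlap. Xbp1, the target of IRE1, was by far the lowest at 1.44 RPKM, rank 10155. Its level was between 0.00760 and 0.0390 times that of Ern1.

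**Figure D2:**
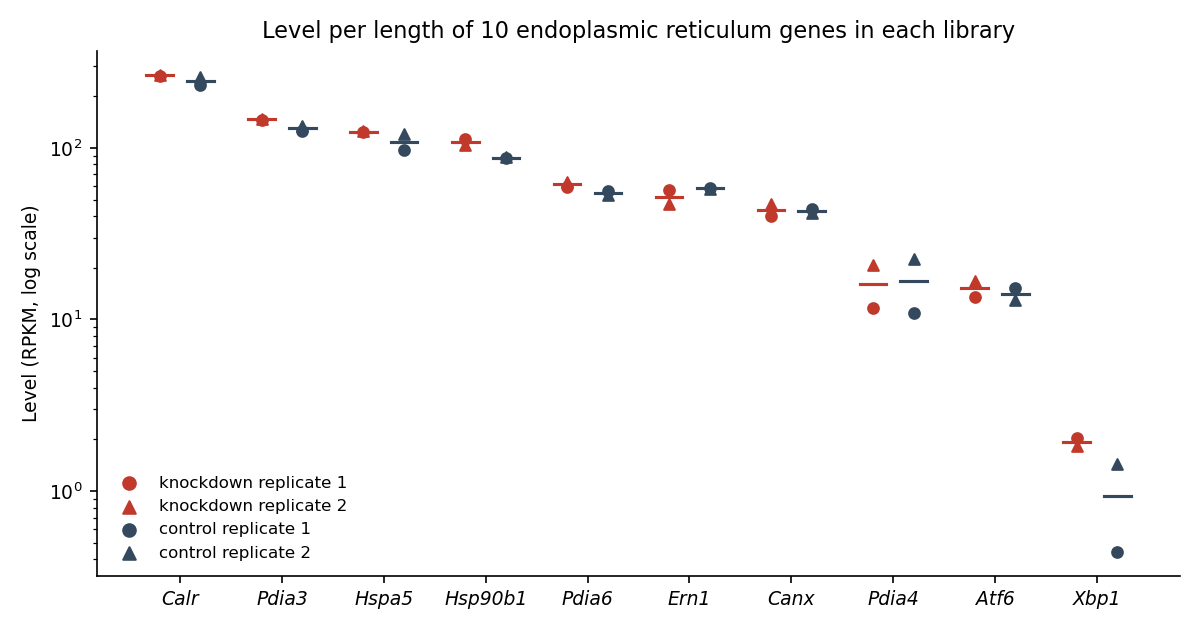
Level per length (RPKM, logarithmic axis) of the 10 genes in each of the 4 libraries, knockdown in red and control in dark blue, with circles for replicate 1, triangles for replicate 2 and a bar at the mean of each group. Calr is highest at a mean of 255 RPKM over the libraries and Xbp1 lowest at 1.44 RPKM, and the replicates of Pdia4 lie apart in both groups.

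None of the 10 genes passed the test between knockdown and control oocytes. The test was edgeR's quasi-likelihood test, adjusted by Benjamini and Hochberg's method over the 15868 genes with a threshold of 0.05, and it called 1 gene in all, Parp12 itself (0.00630%). At an unadjusted p under 0.05 it listed 3 of the 10, Hsp90b1, Hspa5 and Pdia3, all higher in the knockdowns, against 5.51% of tested genes (2.94% higher and 2.57% lower). DESeq2 called 1 of the 10, Hsp90b1, and 1.86% of the 16389 genes it adjusted over; limma-voom called 0 of the 10 and 0 in all, with 3 of the 10 at an unadjusted p under 0.05, against 4.70% of tested genes. The number of the 10 at an unadjusted p under 0.05 depended on the libraries: it was 2 without knockdown replicate 1, 1 without knockdown replicate 2, 1 without control replicate 1 and 5 without control replicate 2. It was 2 with upper-quartile factors and with the legacy fit, 4 with DESeq2 and 3 with every other alternative. DESeq2 put 2166 of the 16389 genes it adjusted over under an unadjusted p of 0.05, a larger share than edgeR or limma-voom. Hsp90b1 was under that p in all 13 alternatives, and Hspa5 and Pdia3 in 9 each. Both missed it without knockdown replicate 1, knockdown replicate 2 or control replicate 1, Hspa5 also with the legacy fit and Pdia3 with upper-quartile factors. Both knockdown libraries lay above both controls in CPM for 6 of the 10 genes and below them for 1, against 18.0% above and 16.8% below (34.9% in all) over all tested genes. Among the 8 of these genes with a mean over 100 CPM, the counts were 5 above and 1 below, against 17.3% and 21.3% of the 2427 tested genes of that level. At that level 2.93% of genes were higher and 4.70% lower at an unadjusted p under 0.05, where 3 of the 8 were higher. The median log2 fold change of the 10 was 0.13, beside 0.00 over all tested genes. Summed over the 10 genes, the libraries held 3223 and 3236 CPM in the knockdowns and 2889 and 3080 CPM in the controls. Calr gave the largest part of this sum, with means of 761 CPM in the knockdowns and 709 CPM in the controls. The sum also holds the sensor gene Ern1, which was lower in the knockdowns, with means of 425 CPM there and 474 CPM in the controls. Since the labels do not state whether the replicates are separate collections of oocytes, the p-values reflect the spread among 4 libraries and may reflect technical spread alone.

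Hsp90b1 had the smallest p of the 10. The chaperone it encodes folds, among others, integrins and Toll-like receptors. It had 457 and 420 CPM in the knockdown libraries, against 351 and 357 CPM in the control libraries. Both knockdowns were well above both controls, and the controls lay close together. The fitted ratio was 1.24, with a 95% interval of 1.10 to 1.39, or 0.31 on the log2 scale with an SE of 0.08. The adjusted p was 0.836 by edgeR and 0.00124 by DESeq2, and over all alternatives tried it ran from 0.00124 to 0.994. Leaving out each library in turn gave log2 fold changes between 0.25 and 0.37. In mm10 the gene lies on the minus strand of chromosome 10, between 86690209 and 86705509. Its exons overlap those of 3 other listed genes over 632 bases. Of these, 1810014B01Rik and Gm15344 had 27 and 33 counts in control replicate 1 and 0 elsewhere, and Gm25745 had 0 in all libraries.

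Hspa5 encodes BiP, which binds unfolded chains and keeps the stress sensors inactive while it is bound to them. It had 523 and 530 CPM in the knockdowns, against 411 and 506 CPM in the controls. The groups did not overlap, but control replicate 2 came close to the knockdowns, and control replicate 1 stood apart. On the log2 scale the fitted difference was 0.20, 95% interval 0.01 to 0.39, and edgeR's adjusted p was 0.836. Without control replicate 1 the log2 fold change was 0.07, the lowest of any alternative. The ratio of Hsp90b1 to Hspa5 in RPKM was 0.916 and 0.832 in the knockdowns and 0.895 and 0.740 in the controls, and these overlapped.

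The lectin chaperones and their partner isomerase differed little. Calr had 753 and 770 CPM in the knockdowns, against 672 and 746 CPM in the controls, groups that only just failed to overlap. Its log2 fold change was 0.10 (95% interval -0.05 to 0.25). Canx had 189 and 221 CPM in the knockdowns, against 207 and 197 CPM in the controls, and the knockdowns lay on either side of the controls. Its log2 fold change was 0.01 (95% interval -0.21 to 0.24). Pdia3 had 457 and 462 CPM in the knockdowns, against 396 and 423 CPM in the controls. Both knockdowns were above both controls, and the log2 fold change was 0.16 (95% interval 0.01 to 0.32), with adjusted p 0.836 by edgeR. The ratio of Pdia3 to Calr in RPKM was 0.556 and 0.551 in the knockdowns and 0.541 and 0.521 in the controls, a small gap without overlap that was not tested.

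**Figure D3:**
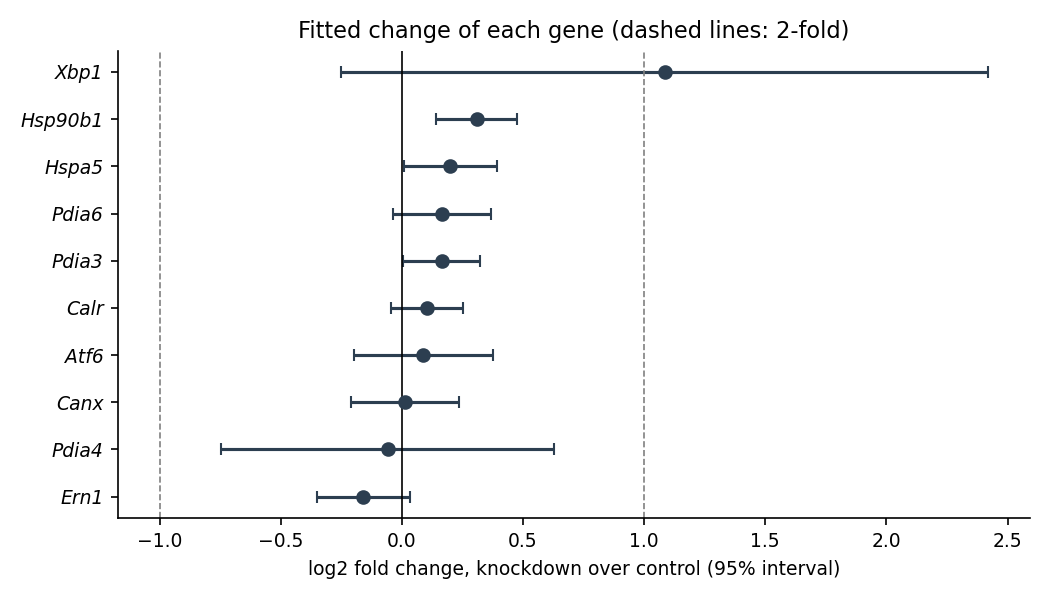
Fitted log2 fold change of each of the 10 genes, knockdown over control, with its 95% interval from edgeR; dashed lines mark a 2-fold change in either direction. The interval of Hsp90b1 runs from 0.14 to 0.48, and that of Xbp1, from -0.25 to 2.42, is the widest of the 10.

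Pdia6 and Pdia4, both isomerases of the ER lumen, behaved unlike each other between replicates. Pdia6 had 222 and 237 CPM in the knockdowns, against 209 and 199 CPM in the controls, groups that did not overlap. Its log2 fold change was 0.17 (95% interval -0.04 to 0.37). Pdia4 had 27.8 and 49.6 CPM in knockdown replicates 1 and 2, against 26.3 and 53.7 CPM in control replicates 1 and 2. In both groups replicate 2 was far above replicate 1, and the groups overlapped throughout. On the log2 scale the difference between replicates was 0.83 in the knockdowns and 1.03 in the controls. Among the 3765 tested genes with a mean of 20 to 80 CPM the median size of that difference was 0.20 between knockdowns and 0.22 between controls. The log2 fold change of Pdia4 was -0.06, with a 95% interval of -0.75 to 0.63 that left room for a change of 1.5-fold. Its sign turned without knockdown replicate 1, at 0.33, and without control replicate 2, at 0.51. Over all tested genes the correlation of the deviations of same-numbered libraries was 0.008. That value describes the genes as a whole and cannot decide the matter for a single gene such as Pdia4. Whether same-numbered libraries share an origin was not tested.

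The sensors and Xbp1 showed no call in either direction. Ern1 had 464 and 386 CPM in the knockdowns, against 476 and 473 CPM in the controls. It was the only one of the 10 with both knockdowns below both controls, by a narrow margin in replicate 1. The log2 fold change was -0.16 (95% interval -0.35 to 0.03), and without knockdown replicate 2 it was -0.04. Atf6 had 126 and 154 CPM in the knockdowns, against 141 and 120 CPM in the controls, so the groups overlapped. Its log2 fold change was 0.09 (95% interval -0.20 to 0.37).

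Xbp1 was measured on few reads and varied most. It had 281 and 214 counts in the knockdowns (6.60 and 5.98 CPM), against 65 and 191 counts in the controls (1.44 and 4.67 CPM). Exact Poisson 95% intervals, which cover counting error only, were 5.85 to 7.42 and 5.20 to 6.83 CPM in the knockdowns, and 1.11 to 1.83 and 4.03 to 5.38 CPM in the controls. The controls thus differed from each other by more than counting error, and the intervals of control replicate 2 and knockdown replicate 2 overlapped. On the log2 scale the fitted difference was 1.08, SE 0.62 and 95% interval -0.25 to 2.42, and edgeR's adjusted p was 0.841. It was 0.45 without control replicate 1 and 2.12 without control replicate 2, so its size rests on the controls. A count per gene does not separate the spliced form of Xbp1, which encodes the active factor, from the unspliced form. The ratio of Xbp1 to Ern1 in RPKM was 0.0358 and 0.0390 in the knockdowns and 0.00760 and 0.0248 in the controls.

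**Figure D4:**
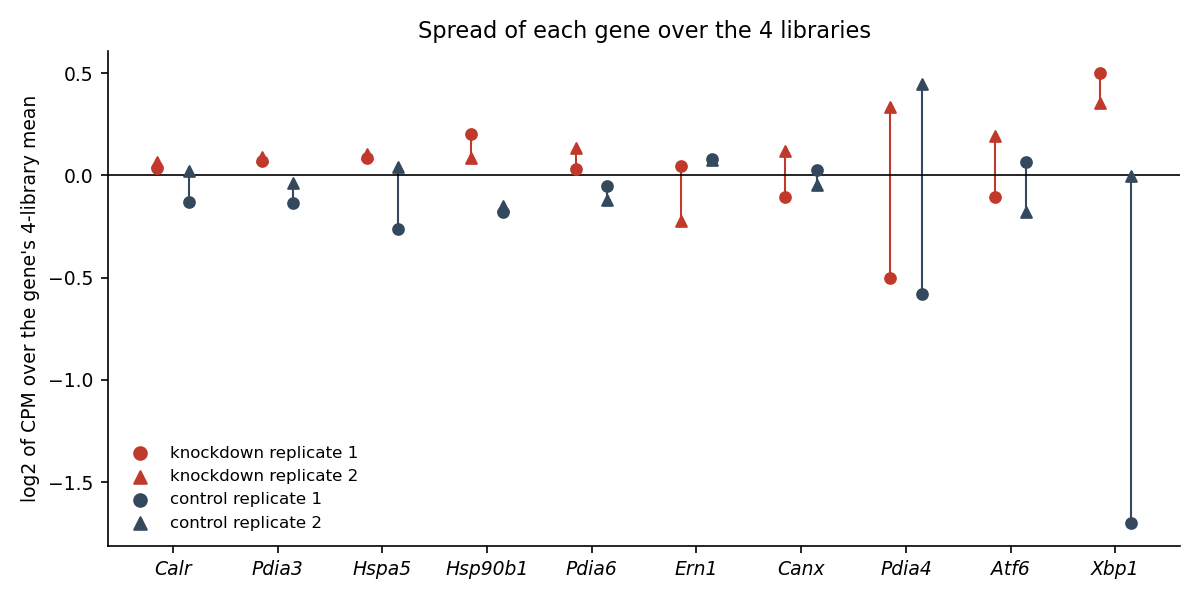
Log2 of each gene's CPM in a library over its mean of the 4 libraries, knockdown in red and control in dark blue, with circles for replicate 1, triangles for replicate 2 and lines joining replicates. Replicate 2 of Pdia4 is above replicate 1 in both groups, and control replicate 1 of Xbp1, at 1.44 CPM, is far below the other 3 libraries.

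The intervals show what these libraries could resolve. For 9 of the 10 genes the 95% interval excluded a 2-fold change in either direction, Xbp1 being the exception. For 8 of the 10 it excluded a 1.5-fold change, all but Xbp1 and Pdia4. Of all 15868 tested genes, 7416 had an interval that excluded a 2-fold change and 4569 one that excluded a 1.5-fold change. Such intervals go with level. Among the 2427 tested genes with a mean over 100 CPM, 2426 excluded a 2-fold and 2374 a 1.5-fold change. All 8 of the 10 genes at that level excluded both. The half-width of the interval was smallest for Calr, at 0.15 on the log2 scale, and largest for Xbp1, at 1.34.

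Other ER genes were read from 6 lists of 156 genes, of which 146 were tested and 0 were called by edgeR. At an unadjusted p under 0.05 it listed 7 higher and 2 lower, beside 2.94% and 2.57% of all tested genes. DESeq2 called 2, Txndc12 and Eif2ak3, both higher in the knockdowns, beside 1.86% of all the genes it adjusted over. Over all 146 genes the median log2 fold change was 0.07. Both knockdowns lay above both controls for 35 and below for 24, beside 18.0% and 16.8% of all tested genes. By list, these counts above and below were 6 and 4 of 21 for oxidative folding, and 1 and 6 of 26 for chaperones and cofactors. They were 8 and 2 of 24 for N-glycan transfer, and 7 and 7 of 29 for ER-associated degradation. For stress signalling they were 5 and 3 of 21, and for translocation 8 and 2 of 25.

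Of 25 other disulfide isomerase and oxidative folding genes, 21 were tested and 4 were at 0 in all libraries (Pdia2, Erp27, Gpx7 and Gpx8). Their median log2 fold change was 0.38, with 15 genes above 0 and 6 below. The middle gene, Prdx4, a peroxiredoxin of the ER, had 3.50 and 6.23 CPM in the knockdowns and 3.94 and 3.32 CPM in the controls, which overlapped, and the SE of its log2 fold change was 0.60. Summed over the list, the libraries held 1686 and 1691 CPM in the knockdowns and 1702 and 1652 CPM in the controls, which overlapped as well. Txndc5, the most abundant gene of the list in CPM, had 542 and 547 CPM in the knockdowns and 615 and 562 CPM in the controls, with both knockdowns lower and a log2 fold change of -0.12. Prdx4 and Txndc5 were named after their values were seen. At an unadjusted p under 0.05, edgeR listed 4 of the 21 higher and 1 lower, beside 2.94% and 2.57% of all tested genes. Txndc12, a thioredoxin-like protein of the ER, had 92.4 ± 6.16 CPM in the knockdowns and 65.3 ± 4.70 CPM in the controls (SD of 2 libraries), a log2 fold change of 0.51. Its adjusted p was 0.836 by edgeR and 0.00497 by DESeq2, and over all alternatives it ran from 0.00497 to 0.994. Erp29, a chaperone with a thioredoxin fold, had 47.7 ± 3.01 CPM in the knockdowns and 34.8 ± 0.750 CPM in the controls. P4hb, the classical protein disulfide isomerase and the highest of the list per length at 138 RPKM, had 406 ± 17.1 CPM in the knockdowns and 386 ± 16.2 CPM in the controls.

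The 30 other ER chaperones and cofactors had 26 tested genes and a median log2 fold change of -0.07. Both knockdowns were above both controls for 1 gene and below for 6, beside 18.0% and 16.8% of all tested genes. Dnajc3, a co-chaperone of BiP, had 158 ± 17.7 CPM in the knockdowns and 186 ± 24.2 CPM in the controls, which overlapped. Creld1 had 0.658 and 0.503 CPM in the knockdowns and 2.10 and 2.34 CPM in the controls. Creld2, an ER protein known to respond to stress and the highest of the list at 194 RPKM, had 265 ± 10.9 CPM in the knockdowns and 264 ± 4.47 CPM in the controls. No gene of this list was under an unadjusted p of 0.05 by edgeR, 0 by limma-voom and 3 by DESeq2. Beside these stand 5.51% of tested genes by edgeR, 4.70% by limma-voom and 2166 of 16389 genes by DESeq2.

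The 24 genes for N-glycan transfer and the calnexin cycle were all tested and had a median log2 fold change of 0.15. Alg5, a glucosyltransferase that helps to build the N-glycan precursor, had 7.64 ± 0.258 CPM in the knockdowns and 3.31 ± 1.19 CPM in the controls. Alg6, which adds the first glucose to that precursor, had 0 counts in both knockdowns and 44 and 30 counts in the controls. The mean of the controls was 11.1 times the level of 3 counts per library, taken as the limit of a count of 0. That ratio leaves out the spread between libraries and is no bound on the change. By edgeR the log2 fold change was -8.15 with an SE of 3.79. Its unadjusted p was not under 0.05, and its adjusted p was 0.836. Stt3b, a catalytic subunit of the oligosaccharyltransferase, was highest at 121 RPKM, with 493 ± 42.8 CPM in the knockdowns and 532 ± 22.8 CPM in the controls.

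The 29 genes of ER-associated degradation, which sends misfolded proteins to the proteasome, were all tested and had a median log2 fold change of 0.09. Sel1l, the partner of the ubiquitin ligase HRD1, had 153 ± 13.6 CPM in the knockdowns and 127 ± 15.9 CPM in the controls. Rnf185, a membrane ubiquitin ligase and the highest at 141 RPKM, had 394 ± 0.766 CPM in the knockdowns and 425 ± 28.1 CPM in the controls.

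Of 23 other genes of stress sensing and signalling, 21 were tested, with a median log2 fold change of 0.05. Eif2ak3, which encodes PERK, the sensor that acts by phosphorylating a translation factor, had 966 and 881 counts in the knockdowns and 605 and 524 in the controls. That was 23.6 ± 1.36 CPM in the knockdowns and 13.1 ± 0.407 CPM in the controls, with a log2 fold change of 0.84 (95% interval 0.23 to 1.46). The adjusted p was 0.836 by edgeR and 0.0104 by DESeq2, and over all alternatives it ran from 0.0104 to 0.994. Tmbim6, a membrane protein that restrains IRE1, had 262 ± 2.58 CPM in the knockdowns and 298 ± 26.8 CPM in the controls. Atf4, the transcription factor downstream of PERK, was highest at 134 RPKM, with 315 ± 0.0354 CPM in the knockdowns and 317 ± 24.2 CPM in the controls.

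The 25 genes for translocation into the ER were all tested, and the median log2 fold change was 0.08. At an unadjusted p under 0.05 there were 0 by edgeR, 0 by limma-voom and 1 by DESeq2. Over all genes these were 5.51%, 4.70% and 2166 of 16389. Srp9, of the signal recognition particle, had 59.2 ± 9.02 CPM in the knockdowns and 46.9 ± 1.65 CPM in the controls. Ssr2, of the translocon-associated complex, had 17.6 and 23.4 CPM in the knockdowns and 25.5 and 27.7 CPM in the controls. Tram1, which assists translocation and was highest at 75.1 RPKM, had 242 ± 1.60 CPM in the knockdowns and 233 ± 4.12 CPM in the controls.

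**Figure D5:**
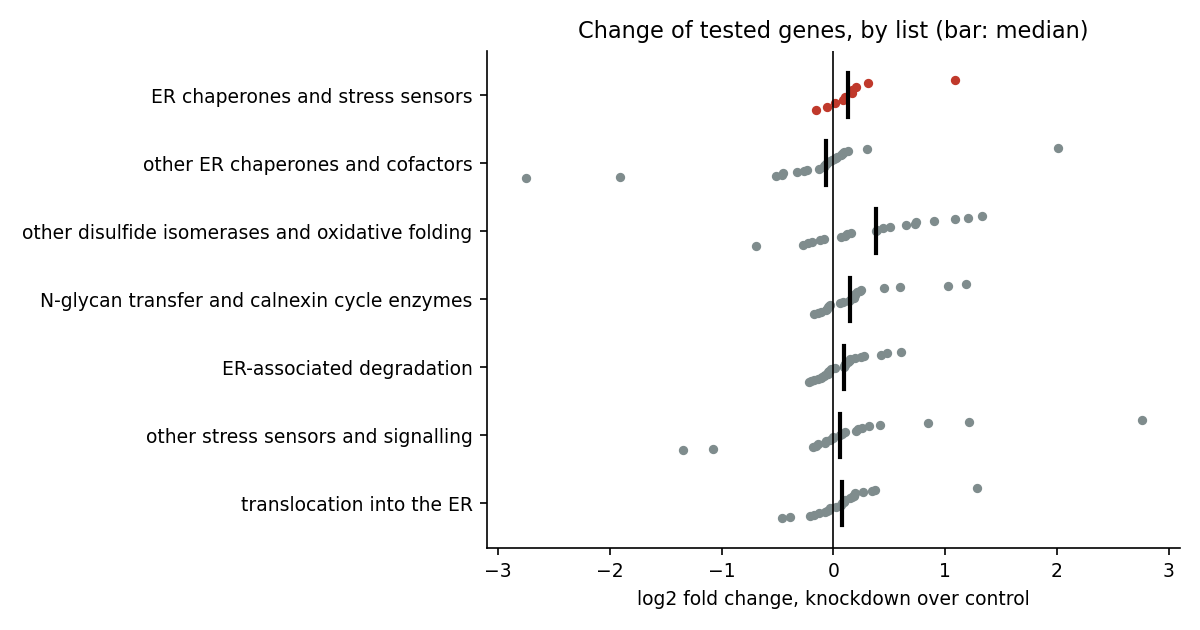
Log2 fold change, knockdown over control, of each tested gene in the 10-gene set (red) and in 6 lists of other ER genes (grey), with a bar at each median; 1 gene beyond 3 on the log2 scale is not drawn. The medians lie between -0.07 for other chaperones and cofactors and 0.38 for other disulfide isomerases and oxidative folding, beside 0.13 for the 10 genes.

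The genes with an ER stress response element in their window were split between higher and lower values. The 39 windows with the element belonged to 37 gene symbols, of which 34 were in the count table, Ero1b under its older symbol Ero1lb, and 22 were tested. Their median log2 fold change was 0.0046, with 12 above 0 and 10 below. Among those of the 10 genes with the element, both knockdowns lay above both controls for Hspa5, Hsp90b1, Calr and Pdia6 and overlapped them for Canx. Among those of the 10 with a window but no element, Pdia3 and Xbp1 lay above, Ern1 below, and Pdia4 overlapped. For the 17 tested genes left after the 5 with the element among the 10 were set aside, the median was -0.05, with 7 above 0 and 10 below. Both knockdowns were above both controls for 1 of these 17, Derl3, and below for 5, beside 18.0% and 16.8% of all tested genes. The 17 included Calr4, Creld2 and Dnajc3, from the list of other ER chaperones and cofactors, and the groups overlapped for each of them. They also included Ero1lb, which overlapped too, and the genes Syvn1 and Derl3 of ER-associated degradation. Alg12, a gene of N-glycan assembly, was among the 5 below. It had 16.8 and 13.2 CPM in the knockdowns and 18.4 and 16.9 CPM in the controls, with a log2 fold change of -0.22. Of these ER genes, Calr4, Ero1lb, Syvn1, Derl3 and Alg12 were named after their values were seen. Syvn1, the ligase HRD1, had 111 and 136 CPM in the knockdowns and 128 and 126 CPM in the controls, which overlapped, with a log2 fold change of -0.05. Derl3 had 78.6 and 89.8 CPM in the knockdowns and 77.6 and 78.2 CPM in the controls, with a log2 fold change of 0.10.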

How the data were processed

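Messenger RNA of 4 oocyte libraries was selected with poly(A) beads and sequenced, per the labels' protocols. The authors deposited raw read counts per gene symbol, with exon coordinates and a summed exon length per the file headers, as featureCounts writes them. Per the submitters' processing notes the build was mm10, and featureCounts 2.0.0, STAR 2.7.5b, DESeq2 1.28.1 and Trim Galore 0.6.4 were used in roles not stated. Strand setting and the treatment of reads with several alignments are not stated in these sources. Coordinates of all 10 genes matched GENCODE release 21 for mouse. Of their 50-base transcript stretches, 9.75% for Hsp90b1 and at most 0.343% for the others occur in another annotated gene.

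Groups and replicate numbers came from the titles. The table holds 0 columns of other samples and 0 rows without a name. The main test used edgeR 4.0.16 under R 4.3.3 (filterByExpr with a minimum count of 10 and a total of 15, TMM, estimateDisp, robust glmQLFit, glmQLFTest, two-sided, Benjamini-Hochberg over all tested genes). The SE was taken from the F statistic, and the 95% interval from the t quantile. DESeq2 1.42.0 and limma-voom (limma 3.58.1) were alternatives, DESeq2 on all genes with a count and with its own filter set for a threshold of 0.05, together with other scaling factors, filters, the legacy fit, the replicate number as a block and leaving out each library. CPM and RPKM use library totals over all genes. The main edgeR test, DESeq2 and limma-voom were first tried on simulated data, and the other alternatives were not. No exact permutation test is given, because its smallest two-sided p with 6 arrangements of the libraries is 0.333. A chi-square per degree of freedom of 33.9 between the knockdowns and 39.6 between the controls showed neither pair to be a single library in 2 copies.

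The 10 genes and all lists were chosen with earlier results of these data known. Named were Parp12, the 10 genes, in each list of other ER genes the 2 tested genes with the smallest edgeR p and the gene with the highest mean RPKM, marker genes at 0 in all libraries and the 2 highest of each marker list in CPM. A gene that the rule selected is left out. No gene was named for likeness of pattern, since 4 libraries are too few for a correlation across samples. Promoter windows are those of RefSeq for GRCm38.p6.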

Additional observations from a re-analysis of the deposited data

How the results depend on the processing

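Of 130 values of the 10 genes under the alternatives, 123 kept their direction and their side of the threshold. With DESeq2, 1 of the 10 genes was called (Hsp90b1, log2 fold change 0.31) and 2 genes of the other ER lists (Txndc12 at 0.50 and Eif2ak3 at 0.85), all higher in the knockdowns, and 305 genes in all. edgeR called 8 genes in all under the filter of 1 CPM, and limma-voom made 0 calls (746 genes had an unadjusted p under 0.05), with Parp12 at a log2 fold change of -7.73 (adjusted p 0.280). The cause was not tested. Leaving out each library gave 1 to 2 calls in all and 0 among the 10 genes and the other ER lists; the single library of a group was then assumed to vary like the other group. Over these settings Canx ran from -0.10 to 0.13, Pdia4 from -0.51 to 0.51, Atf6 from -0.061 to 0.24, Creld2 from -0.039 to 0.044 and Atf4 from -0.070 to 0.059, so each changed sign. The values of changed sign were, for Canx, -0.10 without knockdown replicate 2 and -0.03 without control replicate 2; for Atf6, -0.061 and -0.034 in the same settings; for Pdia4, 0.33 without knockdown replicate 1 and 0.51 without control replicate 2; for Creld2, -0.039 and -0.025 in those settings; and for Atf4, 0.059 without control replicate 2. Creld2 was -0.00061 with upper-quartile factors. The order of the 10 genes by level differed at 2 places in knockdown replicate 1, 4 in control replicate 1 and 2 in control replicate 2 from that by the mean. With the replicate number as a block, edgeR called 1 gene in all and 0 of the 10, with log2 fold changes of 0.31 for Hsp90b1, -0.04 for Pdia4 and 1.10 for Xbp1. The labels give same-numbered libraries a shared number and do not say what it stands for. The correlation of their deviations, 0.008, is a value over all tested genes and cannot decide whether single genes shifted together. The blocked values therefore stand here only. For low genes depth and spread limit what can be seen: the median size of the log2 difference between replicates was 0.58 in both groups for genes of 2.5 to 10 CPM.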
